A study of Mus musculus with 6 samples.

Results

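The enzymes described here join drugs, hormones and reactive metabolites to glutathione, glucuronic acid or sulfate. They were taken as every gene on the array whose symbol begins with Gsta, Gstk, Gstm, Gsto, Gstp, Gstt or Gstz and a digit, with Mgst1 to Mgst3, with Ugt1, Ugt2 or Ugt3 and a letter, or with Sult and a digit. The rule found 58 genes with 80 probes among 21367 named genes. Of these, 51 genes, read by 71 probes, passed the filter on low signal, and each of the 51 was well above background on 6 of 6 arrays. The other 7, Gstt4, Sult1c1, Sult2b1, Sult3a2, Sult6b1, Sult6b2 and Ugt2a1, did not pass and were not fitted.

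Glutathione S-transferases, the soluble alpha, mu, pi, theta, kappa, omega and zeta classes and the membrane-bound Mgst enzymes, add glutathione to electrophiles. UDP-glucuronosyltransferases of the endoplasmic reticulum add glucuronic acid to bilirubin, steroids and drugs, and cytosolic sulfotransferases add sulfate to phenols, steroids and bile acids. Liver is a main site of all these reactions, and several of the genes respond to the receptors CAR, PXR and AHR, to NRF2, or to the growth hormone pattern that differs between the sexes.

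Liver RNA came from 6 C57Bl/6 mice killed at 23 months, 3 wild type (WT) and 3 with a knockout of Itpr2 (KO), which encodes a receptor that lets calcium out of the endoplasmic reticulum. The animals were untreated, belonged to a survival cohort and ate standard diet, and the labels name neither the knockout allele nor the sex of the mice. Each mouse was measured on 1 single-colour Agilent array. A level here is log2 of the signal minus the 75th percentile of its array, a change is KO minus WT, and adjusted p-values are from limma with Benjamini-Hochberg adjustment over 17991 genes.

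Between 57.3% and 59.4% of probes per array were well above background and 0 spots were saturated; having 3 arrays a genotype limits the precision. Itpr2 itself was at 2.94 ± 0.035 (SD, n = 3) in WT and 2.23 ± 0.17 (SD, n = 3) in KO, lower on all KO arrays, with a limma adjusted p of 0.815; the sources used here do not place its probe relative to the deletion. All 8 hepatocyte markers were measured. Xist was well above background on 6 of 6 arrays, and the Y-linked Ddx3y, Kdm5d, Uty and Eif2s3y on 0 of 6. WT 1, WT 2 and KO 1 shared slide 1, and WT 3, KO 2 and KO 3 shared slide 2, so a change within slide 1 rests on KO 1 and a change within slide 2 on WT 3.

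Promoters of 6 members are printed, some of genes that varied widely from mouse to mouse and some of genes that varied less. They were picked after the values were seen. RefSeq's table for GRCm38.p6 holds promoters for 50 of the 58 genes, 62 in all, from 250 bases before the start to 50 after it. Sult2a3 ranged over 4.63 log2 units and Sult2a4 of the same family over 0.58, near the median of 0.64 over all genes. Sult3a1 ranged over 5.74. Its close relative Sult3a2 also varied, from -4.80 to -1.47 on the 4 arrays where it was well above background. Ugt2b5 and Ugt2b36 varied little, over 0.20 and 0.31. Capitals mark matches on either strand to the STAT5 motif TTCNNNGAA or the C/EBP motif TTGCNNAA.
Sult2a3 promoter, chr7:14122999-14123298, minus strand: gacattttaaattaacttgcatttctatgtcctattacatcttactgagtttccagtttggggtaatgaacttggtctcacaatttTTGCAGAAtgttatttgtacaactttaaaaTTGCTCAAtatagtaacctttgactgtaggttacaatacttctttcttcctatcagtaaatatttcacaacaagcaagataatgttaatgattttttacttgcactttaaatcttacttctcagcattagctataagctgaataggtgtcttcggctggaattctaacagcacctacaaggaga
Sult2a4 promoter, chr7:13989539-13989838, minus strand: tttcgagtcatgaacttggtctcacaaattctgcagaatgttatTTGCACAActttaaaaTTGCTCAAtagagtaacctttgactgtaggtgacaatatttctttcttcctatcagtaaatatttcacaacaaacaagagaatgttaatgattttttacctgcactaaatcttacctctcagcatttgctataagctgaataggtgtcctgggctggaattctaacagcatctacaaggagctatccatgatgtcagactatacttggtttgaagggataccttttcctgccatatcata
Sult3a1 promoter, chr10:33857472-33857771, plus strand: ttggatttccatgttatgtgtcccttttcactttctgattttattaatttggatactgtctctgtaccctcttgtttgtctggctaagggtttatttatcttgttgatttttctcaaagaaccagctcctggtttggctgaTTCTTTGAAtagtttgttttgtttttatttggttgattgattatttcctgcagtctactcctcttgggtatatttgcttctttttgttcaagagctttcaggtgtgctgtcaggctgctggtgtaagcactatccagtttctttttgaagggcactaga
Sult3a2 promoter, chr10:33782066-33782365, minus strand: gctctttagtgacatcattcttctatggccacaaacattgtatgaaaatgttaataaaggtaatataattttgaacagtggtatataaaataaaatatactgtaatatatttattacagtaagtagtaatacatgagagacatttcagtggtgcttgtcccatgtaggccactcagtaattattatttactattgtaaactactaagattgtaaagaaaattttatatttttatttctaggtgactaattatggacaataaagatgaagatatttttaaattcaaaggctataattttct
Ugt2b5 promoter, chr5:87140291-87140590, minus strand: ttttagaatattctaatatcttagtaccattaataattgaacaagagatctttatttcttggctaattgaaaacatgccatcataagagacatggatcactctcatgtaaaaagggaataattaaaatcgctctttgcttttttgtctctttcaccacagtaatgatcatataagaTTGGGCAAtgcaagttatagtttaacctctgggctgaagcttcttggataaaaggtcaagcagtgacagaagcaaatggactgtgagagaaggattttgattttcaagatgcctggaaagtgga
Ugt2b36 promoter, chr5:87092506-87092805, minus strand: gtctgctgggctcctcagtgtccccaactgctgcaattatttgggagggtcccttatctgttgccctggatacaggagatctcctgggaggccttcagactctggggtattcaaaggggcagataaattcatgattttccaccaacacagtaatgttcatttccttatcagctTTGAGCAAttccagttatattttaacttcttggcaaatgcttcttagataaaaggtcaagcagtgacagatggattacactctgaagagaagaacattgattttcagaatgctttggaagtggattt

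The Sult2a3 and Sult2a4 promoters were 91.8% identical over 244 aligned columns, with a longest identical run of 34 bases, and each holds 2 C/EBP motifs. The Ugt2b5 and Ugt2b36 promoters were 63.3% identical over 319 columns and hold 1 C/EBP motif each. The Sult3a1 and Sult3a2 promoters had 55.7% identity over 106 columns, near the 54.1% of Sult3a1 and Sult2a3, and of these 6 promoters Sult3a1 alone has a STAT5 motif.

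In all, 12 motifs were searched on both strands, and the 2 marked ones were chosen after the matches were seen. The STAT5 motif was in 5 of the 62 promoters of these genes and in 8.30% of all 32851 promoters, and the C/EBP motif in 13 and in 10.8%. The antioxidant response element, which NRF2 binds, was searched as TGACNNNGC (4 of these and 12.4% of all), and the xenobiotic response element, which AHR binds, as GCGTG (11 of these and 32.4% of all). Nuclear receptor motifs were the core element AGGTCA (10 of these and 16.3% of all), its DR4 repeat (0 of these and 0.0152% of all), the HNF4 motif CAAAGTCCA (1 of these and 0.475% of all) and the glucocorticoid receptor core element TGTTCT (14 of these and 19.0% of all). The other liver and core motifs were HNF1 (0 of these and 0.0609% of all), FOXA TGTTTAC (4 of these and 3.65% of all), HNF6 ATTGAT (5 of these and 7.54% of all) and the TATA box TATAAA (14 of these and 13.6% of all). The DR4 repeat contains the core element and other motifs may overlap each other. A match describes letters in this window and is not a measured site.

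The design compares the conjugation transcripts between livers of the Itpr2 KO and WT genotypes. Of the 51 measured genes 0 passed the adjusted threshold of 0.05 (smallest limma adjusted p = 0.815), where 0.00556% of all genes did. At an unadjusted p under 0.05 limma gave 3 of the 51, against 6.04% of all genes. Sult2a3 and Ugt1a10 were lower in KO (2 of 51, against 2.91% of all genes) and Sult5a1 higher (1 of 51, against 3.13%). All KO arrays lay below all WT arrays for 2 of the 51, against 5.66% of all genes, and above them for 0, against 6.11%, or 11.8% in either direction. A lower mean in KO was seen for 36 of the 51 and for 48.6% of all genes, and the median change was -0.090 against 0.0075 over all genes.

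**Figure D1:**
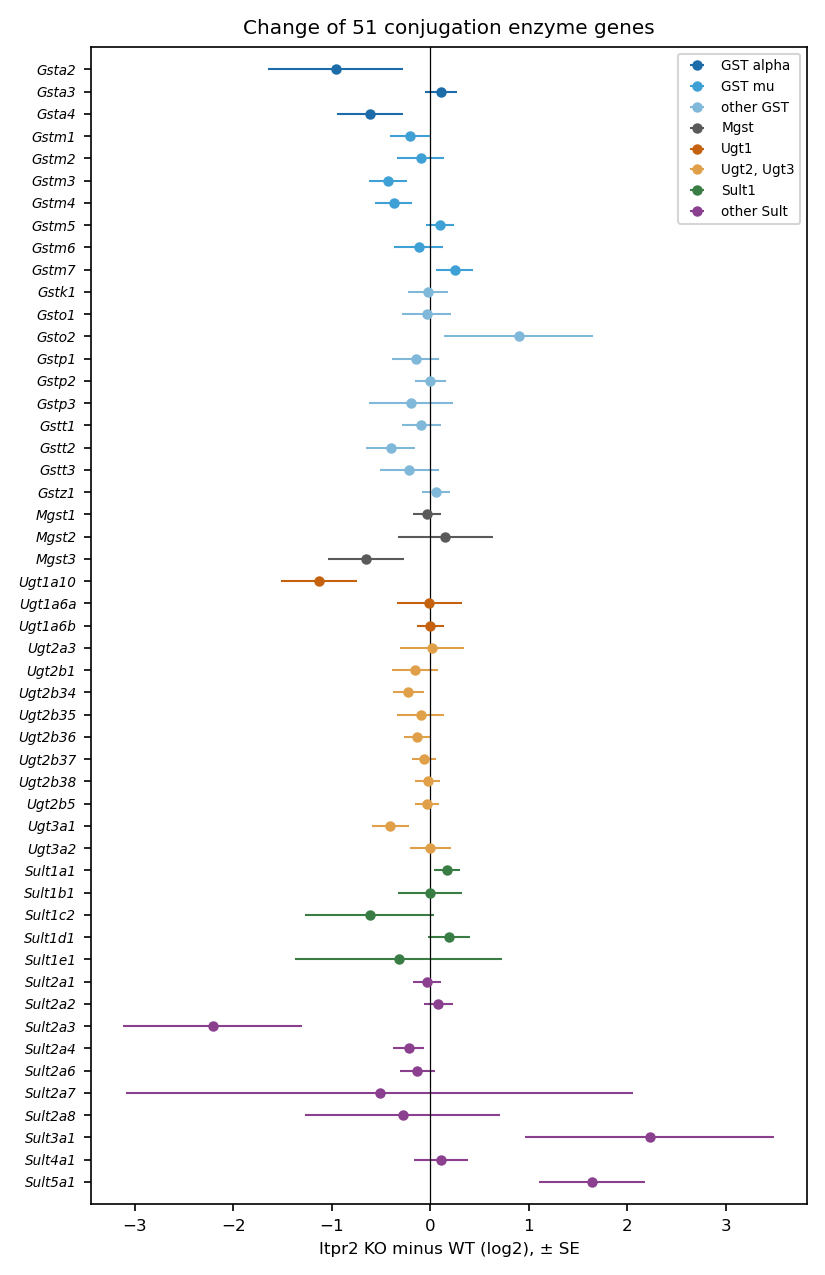
Change between genotypes (KO minus WT, log2, horizontal axis) for each of the 51 measured genes (vertical axis), coloured by enzyme class, with bars of ± 1 SE from limma over 3 KO and 3 WT arrays. Sult2a3 at -2.21, Sult3a1 at 2.23 and Sult5a1 at 1.64 lie farthest from 0, and Sult2a7 has the widest bar.

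The members also differed from mouse to mouse within a genotype. KO 1 was the lowest of the 6 arrays for 25 of the 51 genes, against 20.8% of all genes, and KO 3 for 12, against 21.5%. WT 3 was the lowest for 0, against 9.98%, WT 1 for 4, against 11.1%, WT 2 for 5, against 18.0%, and KO 2 for 5, against 18.7%. By family, KO 1 was lowest for 15 of 23 glutathione transferases, 4 of 13 glucuronosyltransferases and 6 of 15 sulfotransferases.

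KO 2 was the highest array for 19 of the 51 genes, against 19.8% of all genes, and KO 3 for 6, against 27.5%. WT 3 was highest for 11, against 12.7%, WT 2 for 7, against 14.3%, KO 1 for 5, against 16.7%, and WT 1 for 3, against 8.98%. The median deviation of the 51 genes from their own mean was -0.20 on KO 1, 0.18 on KO 2 and -0.093 on KO 3, against 0.0050 to 0.094 on the WT arrays. The SD within KO exceeded that within WT for 41 of the 51 genes, as it did for 71.1% of all genes. Without KO 1 the median change was -0.0094, within slide 1 it was -0.16 and within slide 2 -0.016. On both slides 19 of the 51 genes were lower in KO, against 27.3% of all genes, and 3 were higher, against 24.2%, where slide 1 rests on KO 1 alone.

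**Figure D2:**
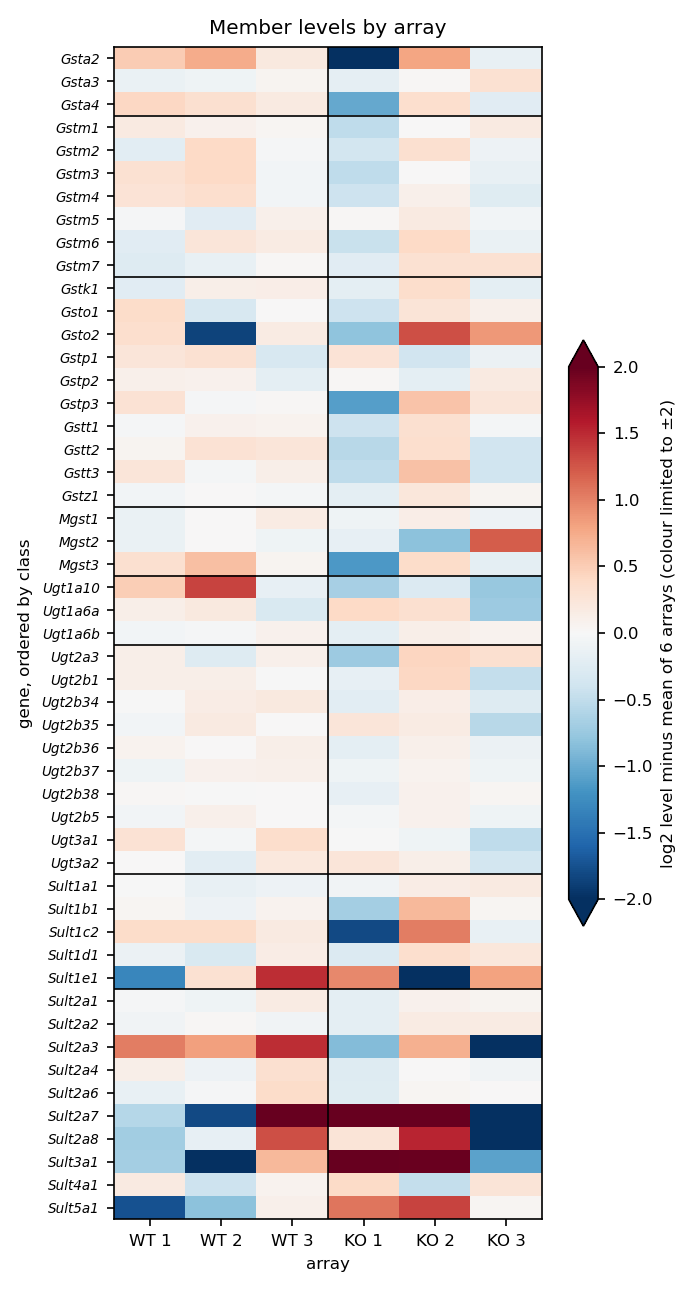
Level of each of the 51 genes (rows, ordered by class) on each array (columns) minus the mean of that gene over the 6 arrays, in log2 units, with colours limited to ±2. The KO 1 column is the lowest for 15 of the 23 glutathione transferases in the upper rows, and the Sult rows at the bottom hold the strongest colours in both genotypes.

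In the alpha class of glutathione transferases, Gsta2 and Gsta4 were lowest on KO 1. Gsta2, an enzyme that also reduces lipid hydroperoxides, had levels of 4.06, 4.29 and 3.76 in WT and 1.47, 4.35 and 3.40 in KO. KO 2 lay above every WT mouse and KO 1 far below, and the change of -0.96 ± 0.69 (SE) was -0.16 without KO 1 and -1.60 without KO 2. Gsta4, which conjugates the lipid peroxidation product hydroxynonenal, had levels of 1.33, 1.24 and 1.101 in WT and -0.11, 1.25 and 0.70 in KO. Its change was -0.61 ± 0.33 (SE), -0.13 within slide 2, -0.25 without KO 1 and -0.93 without KO 2. Gsta3 stood at 7.23, 7.29 and 7.43 in WT and 7.19, 7.40 and 7.67 in KO, with KO 1 below and KO 3 above all WT mice and a change of 0.11 ± 0.16 (SE).

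In the mu class all 7 genes were measured, 5 with a lower mean and 2 with a higher mean in KO, and the distance from the highest to the lowest mouse ran from 0.41 for Gstm5 to 0.89 for Gstm3, with a median of 0.75 against 0.64 over all genes. Gstm3 had levels of 4.69, 4.77 and 4.32 in WT and 3.87, 4.38 and 4.23 in KO, a change of -0.43 ± 0.19 (SE), with KO 1 lowest and KO 2 just above WT 3. Gstm4 had levels of 3.82, 3.88 and 3.49 in WT and 3.13, 3.64 and 3.31 in KO and a change of -0.37 ± 0.19 (SE). Within slide 1 these changes were -0.85 for Gstm3 and -0.72 for Gstm4, and within slide 2 they were -0.022 and -0.016. Slide 2 rests on WT 3, the lowest WT mouse for both genes. Gstm7 pointed the other way, at 1.15, 1.27 and 1.44 in WT and 1.18, 1.71 and 1.71 in KO, a change of 0.25 ± 0.19 (SE) that was 0.43 without KO 1 and 0.16 without KO 3. Gstm1, a major hepatic form, had a change of -0.21 ± 0.20 (SE), -0.0059 without KO 1. Genes of this class are close relatives, as are the Gstp, Ugt2b and Sult2a genes, and their values are uncertain where a probe also takes up signal from a relative.

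Of the other soluble glutathione transferases 7 of 10 had a lower mean in KO and the median change was -0.063. Gstt2 was at 2.55, 2.78 and 2.74 in WT and 1.94, 2.83 and 2.10 in KO, with KO 2 above all WT mice, and its change of -0.40 ± 0.25 (SE) was -0.22 without KO 1 and -0.67 without KO 2. Gstt1, which handles small halogenated compounds, had a change of -0.090 ± 0.20 (SE), and Gstz1, an enzyme of tyrosine breakdown, one of 0.057 ± 0.14 (SE). Gstk1, of mitochondria and peroxisomes, had a change of -0.026 ± 0.20 (SE) and Gsto1, which also reduces arsenic species, one of -0.036 ± 0.25 (SE). Gsto2 varied most in this group, at -3.07, -5.25 and -3.24 in WT and -4.22, -2.12 and -2.54 in KO. On WT 2 it lay near that array's lowest level well above background, -5.83. Its change of 0.90 ± 0.76 (SE) was -0.056 within slide 1 and 0.91 within slide 2. It was 0.20 without WT 2, 0.48 without KO 2 and 1.53 without KO 1.

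Gstp1, the pi class enzyme best known from tumours, split by slide and not by genotype. Its levels were 4.48, 4.56 and 4.51 on the slide 1 arrays WT 1, WT 2 and KO 1 and 3.92, 3.87 and 4.13 on the slide 2 arrays WT 3, KO 2 and KO 3. The change between genotypes was -0.15 ± 0.24 (SE), -0.0064 within slide 1 and 0.079 within slide 2. A second Gstp1 probe split the same way, at 3.91, 3.93 and 3.93 on slide 1 and 3.37, 3.18 and 3.55 on slide 2. So did a probe of its close relative Gstp2, at 4.45, 4.44 and 4.39 on slide 1 and 3.90, 3.83 and 4.17 on slide 2. The brightest Gstp2 probe did not split this way, with KO 3 highest at 6.56. Whether the probes read a shared signal was not tested. The slide and the mice on it cannot be told apart for this difference.

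Among the membrane-bound enzymes Mgst3 was low on KO 1. Mgst3, a glutathione transferase and peroxidase of lipid substrates, was at 3.08, 3.36 and 2.81 in WT and 1.61, 3.12 and 2.56 in KO, and its second probe was at 0.88 on KO 1, also the lowest of the 6 arrays. The change of -0.65 ± 0.39 (SE) was 0.028 within slide 2, -0.24 without KO 1 and -1.0003 without KO 2. Mgst1, the main hepatic form, ranged over 0.30 and had a change of -0.030 ± 0.14 (SE). A second Mgst1 probe was at 6.64, 6.80 and 6.91 in WT and 6.47, 6.34 and 6.58 in KO, a change of -0.32. On that probe all KO arrays lay below all WT arrays, as for 5.66% of all genes. Mgst2 was at -2.86, -2.72 and -2.82 in WT and -2.88, -3.54 and -1.52 in KO, with KO 2 below and KO 3 above all WT mice.

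Marker lists of cell types are given beside the KO 1 values. Of 5 neutrophil markers 4 were measured (Ly6g is not analysed here), 4 of 4 with a higher mean in KO, and their summed level was 5.68 on KO 1, 2.33 on KO 2 and 5.07 on KO 3, against 2.97 to 3.79 in WT. Of 6 Kupffer cell markers 6 had a lower mean, with summed levels of 6.71 on KO 1, 6.30 on KO 2 and 6.66 on KO 3, against 6.65 to 7.72 in WT, so KO 1 lay inside the WT range. Hepatocyte markers summed to 9.98 on KO 1, inside the WT values of 9.93 to 10.1, and 8 of 8 had a higher mean in KO. Their sum was 10.2 on KO 2 and 10.6 on KO 3. Monocyte and macrophage markers summed to 3.39 on KO 1, 2.94 on KO 2 and 3.43 on KO 3, against 3.47 to 4.08 in WT. T and NK cell markers summed to 1.68 on KO 1, 1.93 on KO 2 and 2.61 on KO 3, against 1.97 to 2.86 in WT. Endothelial markers summed to 5.86 on KO 1, 5.51 on KO 2 and 5.08 on KO 3, against 5.29 to 5.54 in WT. KO 1 lay inside the WT range for the B and plasma cell, stellate, cholangiocyte, muscle and fat cell lists. By limma 2 of 6 Kupffer cell, 1 of 8 hepatocyte, 1 of 4 monocyte and macrophage and 1 of 5 stellate markers had an unadjusted p under 0.05. In the other marker lists 0 did, against 6.04% of all genes. The part of these cell types in the low KO 1 values was not tested. In bulk liver, fewer cells of a type and less RNA per cell cannot be told apart.

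Some glucuronosyltransferases of the UGT2 family were close to constant and others were not. In the UGT2 and UGT3 families 10 of 11 genes were measured, 8 with a lower mean in KO, with changes from -0.40 to 0.022 and a median of -0.080. Ugt2b5, a steroid and drug glucuronidating enzyme, was at 5.54, 5.70 and 5.60 in WT and 5.55, 5.68 and 5.51 in KO, a change of -0.034 ± 0.12 (SE). The 6 mice ranged over 0.20 for Ugt2b5, 0.19 for Ugt2b37, 0.24 for Ugt2b38 and 0.31 for Ugt2b36, below the median of 0.64 over all genes. Ranges above that median were seen for Ugt2a3 (1.15), Ugt2b1 (0.89), Ugt3a1 (0.86) and Ugt2b35 (0.81), and in the UGT1 family for Ugt1a10 (2.12) and Ugt1a6a (1.14). Ugt2b34 was at 5.32, 5.47 and 5.53 in WT and 5.11, 5.47 and 5.07 in KO, a change of -0.22 ± 0.15 (SE). Ugt2b1 was at 1.65, 1.65 and 1.52 in WT and 1.37, 1.94 and 1.05 in KO, so that the WT values fell inside the KO spread. Ugt3a1, whose family uses other sugars than glucuronic acid, was at 3.01, 2.68 and 3.06 in WT and 2.71, 2.62 and 2.20 in KO. Its change of -0.40 ± 0.19 (SE) was -0.13 within slide 1, -0.65 within slide 2 and -0.25 without KO 3.

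Transcripts of the Ugt1a locus have first exons of their own and share the downstream exons, so a probe in the shared part would read the whole locus. Ugt1a10, a form best known from the gut, was at 0.66, 1.52 and 0.0043 in WT and -0.50, -0.10 and -0.60 in KO. All KO arrays lay below all WT arrays (exact two-sided permutation p = 0.1, the smallest that 3 against 3 arrays allow), with WT 3 and KO 2 close together. The change of -1.13 ± 0.38 (SE) had a limma adjusted p of 0.815 and was -1.59 within slide 1, -0.35 within slide 2 and -0.73 without WT 2. A second Ugt1a10 probe, at -3.90, -3.81 and -4.29 in WT and -4.23, -4.09 and -4.00 in KO, overlapped between genotypes and changed by -0.10. Ugt1a6b was at 6.91, 6.95 and 7.05 in WT and 6.77, 7.09 and 7.04 in KO, a change of -0.00041 ± 0.14 (SE), and Ugt1a6a had one of -0.0097 ± 0.33 (SE). Ugt1a1, the bilirubin enzyme, is not analysed here.

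Sulfotransferases held both steady and widely varying genes. Sult1a1, the phenol sulfotransferase, was at 6.46, 6.34 and 6.38 in WT and 6.40, 6.62 and 6.66 in KO, a change of 0.17 ± 0.13 (SE), and its second probe changed by 0.17. Sult1d1, which sulfates catecholamines, had a change of 0.19 ± 0.21 (SE). Sult1b1, which acts on thyroid hormone, was at 2.40, 2.26 and 2.44 in WT and 1.68, 3.01 and 2.40 in KO, with KO mice on both sides of WT and a change of -0.0042 ± 0.32 (SE).

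Sult1c2 was lowest on KO 1 and highest on KO 2, at 1.80, 1.79 and 1.61 in WT and -0.38, 2.45 and 1.28 in KO. Its change of -0.61 ± 0.66 (SE) was -2.17 within slide 1, 0.26 within slide 2, 0.13 without KO 1 and -1.28 without KO 2. Sult1e1, the oestrogen sulfotransferase, was at -0.37, 1.24 and 2.42 in WT and 1.89, -1.31 and 1.74 in KO. Its levels ranged over 3.73 log2 units, or 13.3-fold, with high and low mice in both genotypes, and the change was -0.32 ± 1.05 (SE).

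The hydroxysteroid sulfotransferases of the Sult2a family differed in how widely they varied over the 6 mice. Sult2a1, which sulfates steroids and bile acids, was at 6.61, 6.55 and 6.79 in WT and 6.44, 6.72 and 6.68 in KO, a change of -0.036 ± 0.14 (SE). Sult2a4, with the near copy of the Sult2a3 promoter, was at 5.54, 5.33 and 5.75 in WT and 5.17, 5.44 and 5.36 in KO, a change of -0.22 ± 0.16 (SE). Sult2a2 ranged over 0.35 and Sult2a6 over 0.61. Sult2a1 ranged over 0.35 and Sult2a4 over 0.58, so that Sult2a4 and Sult2a6 were near the median of 0.64 over all genes. Another Sult2a6 probe that passed ran from 3.99 on KO 3 to 4.84 on WT 3 and changed by -0.36.

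Sult2a3, by contrast, was at 3.68, 3.47 and 4.13 in WT and 1.79, 3.37 and -0.50 in KO. All KO mice lay below all WT mice (exact two-sided permutation p = 0.1, the smallest possible), with KO 2 just under WT 2 and KO 3 far under it. The change of -2.21 ± 0.90 (SE) had a limma adjusted p of 0.815 and was -1.78 within slide 1, -2.70 within slide 2 and -1.18 without KO 3.

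Sult2a7 and Sult2a8 varied with the mouse and not with the genotype. Sult2a7 was at 0.97, -0.27 and 4.68 in WT and 3.78, 4.55 and -4.51 in KO, a range of 9.19 log2 units. Sult2a8, which sulfates bile acids, was at 2.87, 3.40 and 4.86 in WT and 3.83, 5.11 and 1.37 in KO. In both genes WT 3, KO 1 and KO 2 were the 3 highest mice and KO 3 the lowest, and the changes were -0.51 ± 2.57 (SE) for Sult2a7 and -0.28 ± 0.99 (SE) for Sult2a8. KO 3 also carried striated muscle transcripts, with Acta1 at 3.91, as did WT 1 at 3.75, against -5.55 to -5.09 on the other arrays. Of 5 muscle markers 2 were measured, and 3 of 5 fat cell markers were, with a summed level of 4.57 on KO 3 and 1.19 to 2.56 on the other arrays. The part of these tissues in the low Sult2a values of KO 3 was not tested.

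**Figure D3:**
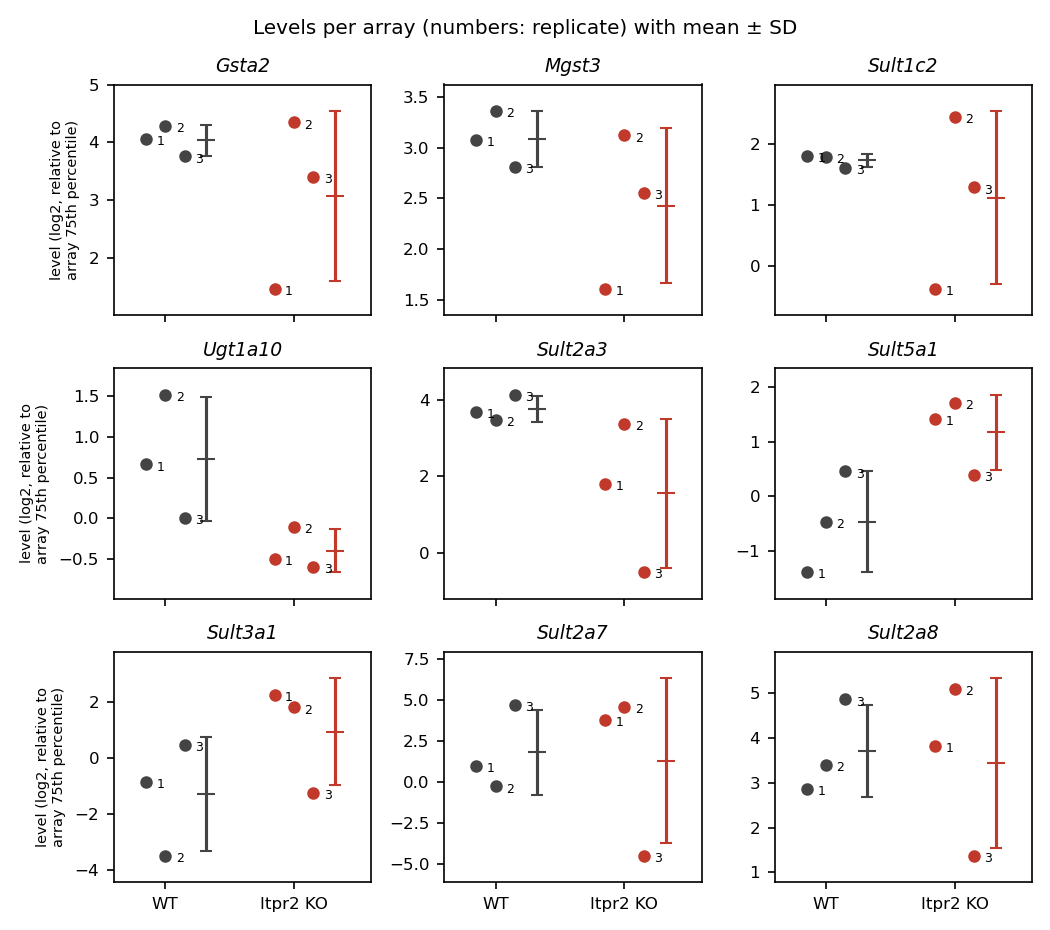
Levels (log2 relative to the 75th percentile of the array, vertical axis) of 9 genes on the 3 WT and 3 KO arrays, each point labelled by its replicate number, with the mean and a bar of ± 1 SD beside the points. KO 1 is the lowest point for Gsta2, Mgst3 and Sult1c2, KO 3 is the lowest for Ugt1a10, Sult2a3, Sult2a7 and Sult2a8, and the genotypes separate for Ugt1a10 and Sult2a3.

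Sult3a1, an amine sulfotransferase typical of female mouse liver, was at -0.84, -3.48 and 0.49 in WT and 2.27, 1.81 and -1.23 in KO. Its relative Sult3a2, well above background on 4 arrays, was at -4.80, -7.91 and -3.93 in WT and -1.47, -3.18 and -6.10 in KO. On the 4 arrays where both were measured, KO 1 was highest, then KO 2, WT 3 and WT 1, and the Sult3a2 values on WT 2 and KO 3 were not well above background and have no order. The Sult3a1 change of 2.23 ± 1.27 (SE) had a limma adjusted p of 0.821 and was 4.42 within slide 1, -0.19 within slide 2 and 1.13 without WT 2. Cyp3a44, another female-typical transcript, was likewise lowest on WT 2, at 1.07, against 5.01 on WT 1, 5.19 on WT 3 and 4.71 ± 0.62 (SD, n = 3) in KO. Cyp3a44 was named after its values were seen, and the female-biased genes together were not lowest on WT 2. They summed to 8.61 there, against 8.22 to 8.90 on the other arrays.

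Other sex-typical liver genes are given beside these. Of 14 female-biased genes 13 were measured, 10 with a lower mean in KO, with a median change of -0.28. By limma 0 of them passed the threshold or had an unadjusted p under 0.05, a level that 6.04% of all genes reached. KO 1 had the lowest summed level of that list, 8.22, against 8.59 to 8.90 on the other arrays, and Hao2 among them was at -3.43 on KO 1 and 2.19 to 2.85 elsewhere. Of 13 male-biased genes 8 were measured, 6 with a lower mean and a median change of -0.15, and the male-specific P450 gene Cyp4a12a was above background on 0 of 6 arrays. Their part in the Sult3a1 values was not tested.

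Sult5a1 was at -1.40, -0.48 and 0.45 in WT and 1.41, 1.71 and 0.38 in KO, so that WT 3 lay just above KO 3 and the other mice separated. Its change of 1.64 ± 0.54 (SE) had a limma adjusted p of 0.815 and an exact two-sided permutation p of 0.2, and was 2.35 within slide 1 and 0.59 within slide 2. Sult4a1, a brain-type member, had a change of 0.11 ± 0.28 (SE).

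Over the family, 18 of the 51 genes ranged over more than 1 log2 unit among the 6 mice, against 25.2% of all genes, and 11 over more than 2, against 5.58%. Of those 11, 5 were among the 10 measured Sult2 to Sult5 genes and 2 among the 5 Sult1 genes, while 0 of the 7 mu class genes and 0 of the 10 UGT2 and UGT3 genes were. The median range was 1.98 for the Sult2 to Sult5 genes, 0.75 for the mu class and 0.53 for UGT2 and UGT3.

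**Figure D4:**
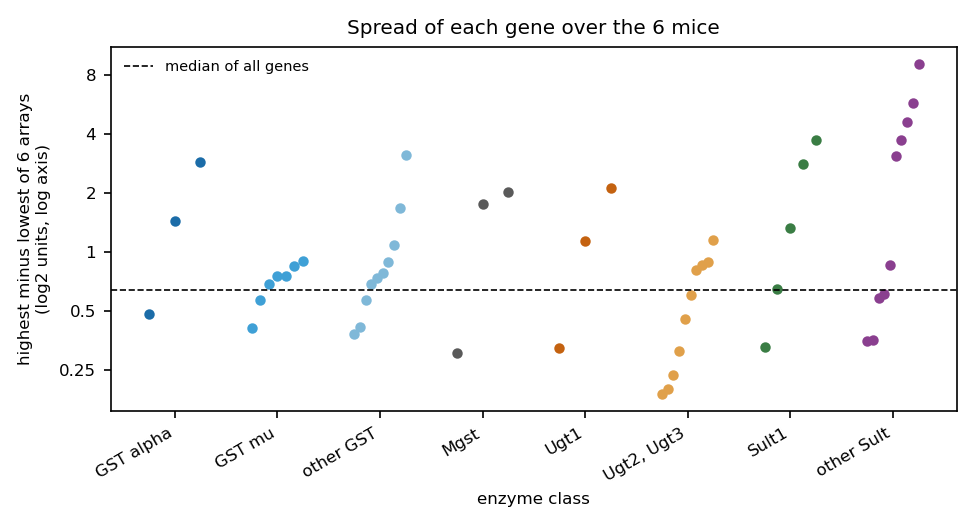
Difference between the highest and the lowest of the 6 arrays for each of the 51 genes (log2 units on a log axis, vertical) by enzyme class (horizontal), with the median of all genes, 0.64, as a dashed line. The Sult2 to Sult5 genes reach 9.19 for Sult2a7, and the UGT2 and UGT3 genes stay at or below 1.15.

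Probes of the same gene mostly gave changes of the same sign. Of 18 genes with several probes that passed, 17 had 1 sign, and the median difference between their most distant probes was 0.11. Gstp2 had both signs, at -0.14 and 0.00048, and Ugt1a10 had the widest gap, 1.03.

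The supply of the donor molecules showed 0 genes past the limma threshold. Of 12 measured genes of glutathione supply and breakdown 9 had a lower mean in KO, with a median of -0.12. An unadjusted limma p under 0.05 was seen for 0 of them, against 6.04% of all genes. Gclc, the catalytic subunit of the rate-limiting enzyme of glutathione synthesis, was at 4.28, 5.34 and 4.50 in WT and 3.96, 4.44 and 4.07 in KO, a change of -0.55 ± 0.30 (SE) that was -0.23 without WT 2. Of 8 genes of glucuronate supply and glucuronide cleavage 4 were higher and 4 lower in the mean, with Ugdh, which makes UDP-glucuronate, at a change of 0.082 ± 0.26 (SE).

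Of 8 measured genes of sulfate activation and sulfate ester cleavage 5 had a lower mean and 2 an unadjusted p under 0.05, a level that 6.04% of all genes reached. Papss1, one of the enzymes that make the sulfate donor, was at 0.014, -0.21 and -0.42 in WT and -0.76, -0.82 and -0.53 in KO, a change of -0.49 ± 0.16 (SE). Papss2, the other, had a change of 0.11 ± 0.27 (SE). The lysosomal sulfatase Arsb was at -2.55, -2.56 and -2.64 in WT and -2.93, -2.91 and -2.99 in KO, a change of -0.36 ± 0.11 (SE). The genotypes did not overlap for Papss1 and Arsb, as for 11.8% of all genes, and the limma adjusted p was 0.815 for Papss1 and 0.815 for Arsb.

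Export pumps for the conjugates gave 6 of 8 genes with a lower mean in KO and a median change of -0.34. Abcc3, which returns glucuronides to the blood, was at 3.97, 4.29 and 4.12 in WT and 2.53, 4.20 and 3.59 in KO, lowest on KO 1 as Gsta2 and Mgst3 were, and its change of -0.68 ± 0.41 (SE) was -0.23 without KO 1 and -1.06 without KO 2. Abcc2, the canalicular pump, had a change of -0.078 ± 0.22 (SE). Other conjugating enzymes (methyl, acetyl and amino acid transferases) numbered 6 higher and 5 lower of 11, with a median of 0.035.

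Of 14 regulators 6 had a higher and 8 a lower mean. By limma 0 passed or had an unadjusted p under 0.05, a level that 6.04% of all genes reached. Nr1i3, which encodes CAR, had a change of -0.36 ± 0.22 (SE), -0.19 without KO 3 and -0.58 without KO 2. Nfe2l2, which encodes NRF2, had a change of -0.36 ± 0.16 (SE), -0.23 without WT 2. Targets of CAR and PXR numbered 4 higher and 4 lower of 8, and Cyp2b10 among them was at 5.69, 5.73 and 5.97 in WT and 4.47, 6.40 and 4.62 in KO. Of 10 NRF2 targets 7 were lower in the mean (median change -0.22), and of 5 measured AHR targets 3 were (median change -0.071). Of the NRF2 targets 2 had an unadjusted p under 0.05, against 6.04% of all genes, in opposite directions: Ephx1, an epoxide hydrolase, with a change of -0.50 ± 0.17 (SE), and Osgin1 with one of 0.64 ± 0.24 (SE).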

How the data were processed

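Per the labels' protocols, RNA from frozen liver was labelled by Cy3 for single-colour Agilent arrays. The deposited scanner tables hold intensity values, background-subtracted and not yet scaled, from Agilent Feature Extraction (11.5.1.1 per the file headers, 10.7.3.1 per the submitters' processing notes). A second deposited table, of log2 values, matched probe-centred scanner values; its KO 2 and KO 3 columns matched each other's arrays. Levels are log2 intensity minus the array's 75th percentile, without 1377 control spots per array and 818 outlier spots. Of 39429 probes, 28330 were named through accessions in a RefSeq table of GRCm38.p6, 0 had several symbols and 11099 none. Genes needed a probe well above background on every array of 1 genotype, and the brightest such probe stood for its gene. Genotypes, 3 independent mice each per the series' design text, were compared with limma 3.58.1 (R 4.3.3, lmFit, eBayes, two-sided, threshold 0.05). The fit was run on simulated data with planted changes. The share recovered is not given here, so that run does not show how small a change would be found.

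The rule for naming took the 3 smallest p-values of each class and a list of well-known members, 35 genes. Further members, and genes of the other lists, were named after their values were seen. Members and lists were chosen with earlier results of these data known. Alternatives were scaling, background correction, filters, probe rules, slide and replicate blocks, variance priors, the deposited log2 values and each array left out.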

Additional observations from a re-analysis of the deposited data

How the results depend on the processing

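Under every alternative fitted 0 members passed the adjusted threshold by limma, and the smallest adjusted p was 0.140, with normexp background correction. Between 1 and 19 members had an unadjusted p under 0.05. The share of all genes at that level is given here only for the main fit, 6.04%. Counts under the alternatives therefore cannot be set against all genes. Normexp moved the median change from -0.090 to -0.62 and narrowed KO 1 and KO 2, whose probes had an SD of 1.79 and 1.35 against 2.31 to 2.40 on the other arrays; it used the median signal in place of the mean signal. With single arrays left out the median was lowest without KO 2 (-0.20) and highest without KO 1 (-0.0094). Without WT 1 and KO 3 together, an alternative chosen after the data were seen, it was -0.062. Same-numbered mice did not deviate together (correlations of -0.19, 0.042 and -0.28 across genes), and with the replicate block 0 members passed. The median stayed at -0.090 there, since each number holds a mouse of each genotype and the block cannot move a change. With slide as a fixed block the median was -0.15 and 1 member had an unadjusted p under 0.05, and with arrays centred on their median the members’ median was -0.16.

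The variance prior, the replicate block and the filter for signal on all arrays cannot move the named genes' changes. Their signs there were fixed in advance. With these included, 662 of 735 changes of the 35 named genes under alternatives kept their sign. The other 73, in 25 genes, had the other one, and the cause was not tested. Without WT 1 and KO 3 they were Gsta3 -0.061, Gsto1 0.077, Gstt3 0.00058, Mgst2 -0.44, Ugt1a6a 0.41 and Ugt2b1 0.072. With arrays centred on their median they were Gstz1 -0.0095. In the deposited log2 values they were Sult1b1 0.0017 and Ugt1a6b 0.0055. With normexp they were Gsta3 -0.46, Gstm7 -0.26, Gstz1 -0.61, Sult1a1 -0.36, Sult1d1 -0.39, Sult1e1 0.021 and Ugt1a6a 1.16. With quantile normalization they were Gsta3 -0.042, Gstz1 -0.047 and Sult1b1 0.014. With slide as a fixed block they were Gstp1 0.037 and Ugt1a6a 0.17. With slide as a random block they were Gstk1 0.00033, Sult1b1 0.060 and Ugt1a6b 0.023. Within slide 1 they were Gsta3 -0.063, Gstm7 -0.032, Gsto2 -0.056, Gstz1 -0.17, Mgst2 -0.090, Sult1d1 -0.063, Sult1e1 1.46 and Ugt1a6a 0.25. Within slide 2 they were Gsta2 0.12, Gstm1 0.064, Gsto1 0.17, Gstp1 0.079, Gstt1 0.073, Mgst3 0.028, Sult1b1 0.26, Sult1c2 0.26, Sult3a1 -0.19, Ugt1a6a 0.090 and Ugt1a6b 0.019. With each array left out in turn the ranges of the genes that crossed 0 were Gsta3 -0.019 to 0.22, Gstk1 -0.21 to 0.066, Gsto1 -0.21 to 0.16, Gstp1 -0.35 to 0.0021, Gstt1 -0.27 to 0.097, Gstz1 -0.041 to 0.17, Mgst1 -0.26 to 0.048, Mgst2 -0.41 to 0.60, Sult1b1 -0.33 to 0.34, Sult1c2 -1.28 to 0.13, Sult1e1 -1.06 to 0.72, Sult2a1 -0.090 to 0.051, Ugt1a6a -0.21 to 0.35, Ugt1a6b -0.063 to 0.098, Ugt2b1 -0.40 to 0.048 and Ugt2b5 -0.086 to 0.011.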

Other observations

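Zonation genes of the liver lobule are given as values, since many conjugation enzymes are concentrated around the central vein. Of 12 pericentral genes 8 had a lower mean in KO, with a median change of -0.14, and their summed level was lowest on KO 3 at 7.87, where the other arrays had 8.03 to 8.64. The mean in KO was higher for 7 of 12 periportal genes (median 0.15). Of these 12 periportal genes 1 had an unadjusted p under 0.05, a level that 6.04% of all genes reached. Sds, serine dehydratase, a periportal gene of amino acid breakdown, was at 3.63, 3.23 and 3.27 in WT and 4.01, 4.13 and 4.80 in KO. All KO mice lay above all WT mice for Sds, as for 6.11% of all genes. Its change of 0.94 ± 0.24 (SE) did not pass the threshold (limma adjusted p = 0.815).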
